A study of Homo sapiens with 6 samples.

Results

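The lysosome and autophagy genes are a set of 40 genes that encode lysosomal membrane proteins and enzymes, subunits of the lysosomal proton pump, transcription factors of lysosomal genes, and the proteins that build autophagosomes and load them with cargo. They were chosen by name, and each was read from the probe set that carries its symbol alone and had the highest mean over the 6 arrays. All 40 were on the array, with 97 of its 54675 probe sets, and all 40 lay above the filter on dim probe sets, beside 13704 genes tested in all. The cells were MDA-MB-231, an established line from a human breast cancer of the triple-negative type. They received TCI04 at 50 µM or phosphate-buffered saline (PBS) for 48 h, and TCI04 is a code name whose structure is not described here. Each group had 3 Affymetrix arrays. Whether these stand for separate cultures is not given in the labels. The p-values therefore describe variation among these 6 arrays, and that variation may be technical.

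Lysosomes are acidic organelles whose hydrolases break down proteins, lipids and sugars delivered by endocytosis and autophagy. In autophagy, the ULK1 kinase complex and the Beclin lipid kinase complex start a double membrane, and an enzyme cascade attaches proteins of the ATG8 family to it. Receptors such as SQSTM1 (p62) bind both the cargo and the ATG8 proteins, and the closed vesicle fuses with the lysosome. The transcription factors TFEB and TFE3 enter the nucleus when mTORC1 at the lysosomal surface is inactive, and raise the transcription of lysosomal and autophagy genes through a DNA element named CLEAR.

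None of the 40 genes passed the adjusted threshold of 0.05 in limma, a linear model fitted over all probe sets, and the smallest adjusted p among them was 0.699. Over the whole array 1 of 13704 genes (0.0073%) passed, which is 1 of 32746 tested probe sets (0.00305%). That gene was FOS, lower with TCI04. Its limma adjusted p was 0.00605, and 0.0535 to 0.125 with any array other than TCI04 replicate 3 left out, 0.0531 with arrays centred on their medians and 0.379 without the variance trend. Without adjustment, 2 of the 40 genes (5%) had a p under 0.05, against 7.12% of all genes. One was the cathepsin CTSL, higher with TCI04, as 2.89% of all genes were at that p. The other was the glycogen-degrading enzyme GAA, lower, as 4.23% of all genes were. A higher mean with TCI04 was found for 20 members and a lower mean for 20, and 49.3% of all genes had a higher mean. With each array centred on its median, 34 of the 40 had a higher mean and their median was 0.15, but the median of all genes was then 0.157. The median log2 fold change was -0.010 over the members and -0.0025 over all genes. All fold changes are TCI04 over PBS on a log2 scale of the signal plus a small offset.

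The 95% intervals of all 40 members lay within a 2-fold change in either direction, and those of 35 within a 1.5-fold change. Over all genes these shares were 85.2% and 66.5%. The shares depend on the width of the intervals as well as on the size of the changes. The median distance from a log2 fold change to the end of its interval was 0.20 over the members and 0.275 over all genes. The plot of intervals by role shows how much wider the dim genes TFEB and ULK1 lie than bright ones such as NBR1 and SQSTM1.

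**Figure D1:**
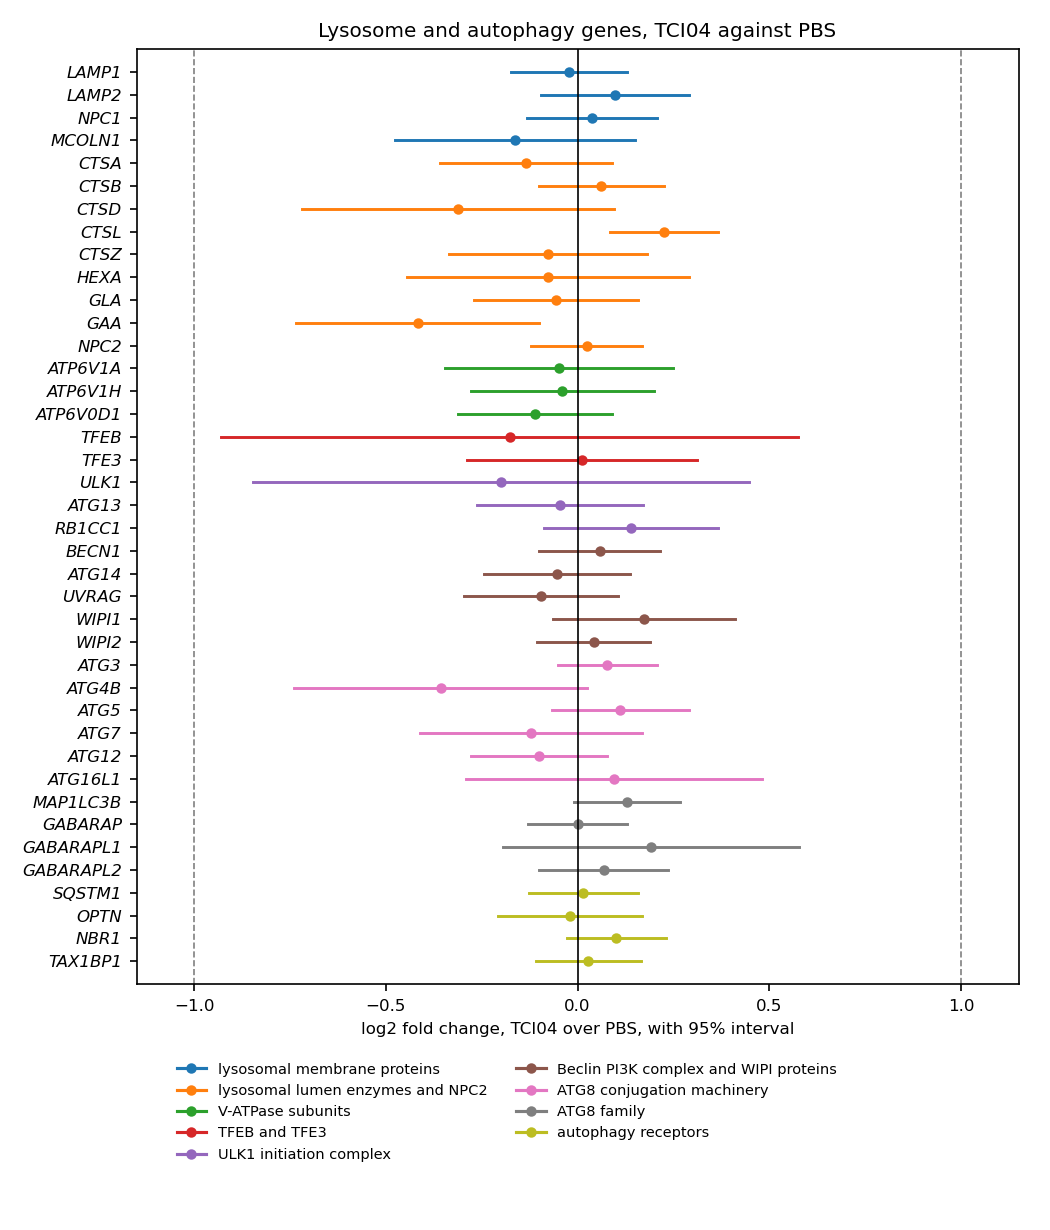
Log2 fold change of each of the 40 genes (points) with its 95% interval from limma (lines), coloured by role; dashed lines mark a 2-fold change. Only the intervals of CTSL and GAA leave out 0, and none reaches a 2-fold change.

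CTSL (cathepsin L, a cysteine protease of the lysosome) had signals of 2974, 3074 and 3215 with PBS and 3762, 3492 and 3583 with TCI04. Every TCI04 array lay above every PBS array. The means were 3088 ± 121 and 3612 ± 137 (SD, n = 3 arrays each), 1.17-fold higher, with a log2 fold change of 0.23 and an interval of 0.084 to 0.37 (limma, adjusted p = 0.699). It was 0.20 after quantile normalization and 0.23 without TCI04 replicate 3. CTSL has pseudogene copies, and its only probe set is of the _s_at kind, which can read more than a single transcript.

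GAA (acid alpha-glucosidase, which degrades lysosomal glycogen) differed in the other direction, with signals of 272, 232 and 275 with PBS and 206, 187 and 181 with TCI04. Here every TCI04 array lay below every PBS array. The means of 259.5 ± 24.0 and 191 ± 12.9 gave a log2 fold change of -0.42 and an interval of -0.73 to -0.100 (limma, adjusted p = 0.699). With each array centred on its median the value was -0.26, and its unadjusted p was above 0.05. That centring moved the median of all genes from -0.0025 to 0.157, so values under it are to be read against that shift.

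The other lysosomal enzymes had smaller or less even differences. CTSD (cathepsin D, an aspartic protease) had signals of 367, 352 and 277 with PBS and 309, 297 and 198 with TCI04. The groups overlapped, and TCI04 replicate 3 was the lowest of the 6 arrays. Its log2 fold change was -0.31 (interval -0.72 to 0.094) and -0.12 without that array. CTSA, a carboxypeptidase that also protects other hydrolases, had a log2 fold change of -0.13, or -0.023 without TCI04 replicate 3. The lysosomal proteases CTSB and CTSZ had 0.062 and -0.077. HEXA, a subunit of the hexosaminidase that degrades gangliosides, had -0.077, and GLA, the alpha-galactosidase, had -0.056. NPC2 hands cholesterol to NPC1 inside the lysosome. Its signals were 7397, 8349 and 7983 with PBS and 7607, 8056 and 8451 with TCI04, with a log2 fold change of 0.024 and an interval of -0.12 to 0.17. Of these 9 lumenal proteins, 3 had a higher and 6 a lower mean, with a median of -0.077, or 7 and 2 with arrays centred on their medians.

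The lysosomal membrane proteins were close to 0. LAMP1, a main glycoprotein of the lysosomal membrane, had signals of 6525, 7353 and 7222 with PBS and 6813, 7399 and 6561 with TCI04. The groups overlapped, and the log2 fold change was -0.022 (interval -0.17 to 0.13). LAMP2, which is needed for fusion with autophagosomes, and the cholesterol exporter NPC1 had 0.097 and 0.037. MCOLN1 encodes the lysosomal calcium channel TRPML1. It had signals of 336, 263 and 309 with PBS and 258, 299 and 249.7 with TCI04, which overlapped, and a log2 fold change of -0.16 (interval -0.48 to 0.15). With arrays centred on their medians LAMP1 turned to 0.14 and MCOLN1 came to -0.0032.

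The V-ATPase pumps protons into the lysosome. Its subunit ATP6V1A, part of the catalytic head, had signals of 3537, 3776 and 3720.3 with PBS and 4205, 2719.5 and 3935 with TCI04. The lowest and the highest of the 6 values were both TCI04 arrays. The log2 fold change was -0.047 (interval -0.34 to 0.25), and it turned to 0.15 without TCI04 replicate 2. ATP6V1H, a regulatory subunit of the head, and ATP6V0D1, a subunit of the membrane part, had -0.039 and -0.11. All 3 subunits had a lower mean, and all 3 had a higher mean with arrays centred on their medians.

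The transcription factors of the CLEAR network did not differ beyond their spread. TFEB was dim, with signals of 96.99, 58.0 and 67.1 with PBS and 67.3, 37.0 and 96.2 with TCI04, near the filter at a mean signal of 37.0. The groups overlapped, and the log2 fold change of -0.18 had the widest interval of the members, -0.93 to 0.58. TFE3 had signals of 1261, 1003 and 1164 with PBS and 1024, 1032 and 1431 with TCI04. The log2 fold change was 0.012 (interval -0.29 to 0.31), and -0.15 without TCI04 replicate 3. Its other tested probe sets, both dimmer, gave -0.18 and -0.51, with intervals that held 0. These arrays measure RNA, whereas both factors are controlled largely by where in the cell the protein lies.

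The promoters of 33 members were in the RefSeq promoter table of build GRCh38.p14, which holds 250 bases before and 50 after each start. The E-box CACGTG, its longer form TCACGTGA and the CLEAR element were searched. The CLEAR element was taken as TCACGTGA with a G before it and a C after it. Each motif holds the shorter ones and reads the same on both strands, so a search of either strand finds all matches. The E-box was found in 8 of the 33 members (24.2%), against 8.77% of the 27305 genes in the table. TCACGTGA was found in 6 members (18.2%) against 1.18% of genes, and the CLEAR element in 2 (6.06%) against 0.421%. A match describes these letters and is not evidence of binding. As the element acts on lysosomal and autophagy genes, a higher share among these members was given in advance. It is no result of the arrays. The 6 members with TCACGTGA are shown because they carry the letters at the centre of the CLEAR element, with the first match in capitals and 20 bases on each side.
GAA: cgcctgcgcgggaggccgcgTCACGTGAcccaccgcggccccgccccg
MCOLN1: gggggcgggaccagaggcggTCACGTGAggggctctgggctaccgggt
CTSA: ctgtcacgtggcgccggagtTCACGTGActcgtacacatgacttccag
LAMP1: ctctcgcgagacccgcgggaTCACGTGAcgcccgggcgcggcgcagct
ATP6V0D1: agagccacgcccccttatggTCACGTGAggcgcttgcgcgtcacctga
ATG3: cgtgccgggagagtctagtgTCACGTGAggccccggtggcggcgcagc
These windows lie at chr17:80101484-80101531, plus strand (GAA), chr19:7522562-7522609, plus strand (MCOLN1), chr20:45891289-45891336, plus strand (CTSA), chr13:113297190-113297237, plus strand (LAMP1), chr16:67481190-67481237, minus strand (ATP6V0D1) and chr3:112561931-112561978, minus strand (ATG3). The match began 77 bases before the annotated start in GAA, 42 in MCOLN1, 26 in CTSA, 29 in LAMP1 and 60 in ATP6V0D1. In ATG3 it lay just after the start.

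Their log2 fold changes were -0.42 for GAA, -0.16 for MCOLN1, -0.13 for CTSA, -0.11 for ATP6V0D1, -0.022 for LAMP1 and 0.078 for ATG3. The median was -0.12, with 5 of 6 lower, and the 27 other matched members had a median of 0.015, with 11 lower. Of the 6, GAA, MCOLN1, CTSA and ATP6V0D1 had their lowest signal in TCI04 replicate 3. Without that array MCOLN1 had -0.11, CTSA had -0.023 and LAMP1 turned to 0.016. GAA was below every PBS array in each TCI04 array. With arrays centred on their medians, MCOLN1 and GAA alone of the 6 were lower (0.025 for CTSA, 0.048 for ATP6V0D1 and 0.14 for LAMP1). None of the 6 passed the test, and the difference between these groups of genes was not tested.

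The full CLEAR element occurred at 2 places in the GAA promoter and at 1 in the MCOLN1 promoter, shown whole with the element in capitals. The CTSL promoter is set beside them because CTSL and GAA were the members with an unadjusted p under 0.05, in opposite directions. None of the 3 motifs was found in its window, which says only that these letters are not there.
GAA: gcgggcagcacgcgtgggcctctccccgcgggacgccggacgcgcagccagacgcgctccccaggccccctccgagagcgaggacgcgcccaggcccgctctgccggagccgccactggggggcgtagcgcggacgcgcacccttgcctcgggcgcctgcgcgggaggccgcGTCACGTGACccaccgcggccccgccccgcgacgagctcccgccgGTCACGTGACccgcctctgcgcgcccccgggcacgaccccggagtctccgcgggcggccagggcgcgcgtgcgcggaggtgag
MCOLN1: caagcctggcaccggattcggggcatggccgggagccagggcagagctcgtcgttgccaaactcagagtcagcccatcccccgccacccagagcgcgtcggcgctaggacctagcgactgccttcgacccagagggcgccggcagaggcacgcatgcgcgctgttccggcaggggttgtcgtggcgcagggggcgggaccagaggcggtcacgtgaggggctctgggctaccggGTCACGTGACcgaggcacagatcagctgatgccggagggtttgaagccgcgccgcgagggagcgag
CTSL: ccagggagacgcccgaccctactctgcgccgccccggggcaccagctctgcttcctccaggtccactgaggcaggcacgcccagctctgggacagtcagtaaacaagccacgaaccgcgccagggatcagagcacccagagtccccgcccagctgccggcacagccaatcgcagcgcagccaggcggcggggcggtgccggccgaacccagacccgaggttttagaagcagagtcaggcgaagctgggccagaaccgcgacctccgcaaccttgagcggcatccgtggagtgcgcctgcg
They span chr17:80101331-80101630, plus strand (GAA), chr19:7522374-7522673, plus strand (MCOLN1) and chr9:87725869-87726168, plus strand (CTSL).

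Among the genes that start an autophagosome, no member passed. ULK1, the kinase of the initiation complex, was dim, with signals of 56.1 to 101 with PBS and 57.8 to 91.3 with TCI04, and had a log2 fold change of -0.20 (interval -0.84 to 0.45). Its partner ATG13 had -0.046. RB1CC1 (FIP200), the scaffold of the complex, had signals of 1269, 1225 and 1086 with PBS and 1264, 1193 and 1499 with TCI04. TCI04 replicate 3 was above all other arrays, and the log2 fold change was 0.14 (interval -0.087 to 0.37), or 0.044 without it.

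BECN1 (Beclin 1), the core of the lipid kinase complex, had signals of 3477, 3781 and 3826 with PBS and 3577, 3857 and 4109.9 with TCI04, which overlapped, with a log2 fold change of 0.058 (interval -0.10 to 0.22). ATG14 and UVRAG, which join Beclin complexes of different function, had -0.054 and -0.096. WIPI1 and WIPI2 bind the lipid that this kinase makes. WIPI1 had 0.17. WIPI2 had signals of 1827, 1809 and 1841 with PBS and 1847, 1852 and 1946 with TCI04. Its groups did not overlap, but the nearest arrays of the groups were almost level, and the log2 fold change was 0.043 (interval -0.10 to 0.19, limma, adjusted p = 0.888).

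The conjugation machinery attaches ATG8 proteins to the lipid of the growing membrane. ATG3, the conjugating enzyme that makes the last transfer, had signals of 5991, 6608 and 6494 with PBS and 6675, 6739 and 6717 with TCI04. The TCI04 arrays all lay above the PBS arrays and close to each other. The log2 fold change was 0.078 (interval -0.051 to 0.21, limma, adjusted p = 0.763). ATG4B, the protease that primes and recycles ATG8 proteins, had -0.36 (interval -0.74 to 0.025, limma, adjusted p = 0.699), from a probe set of the _x_at kind that can bind other transcripts. Without TCI04 replicate 3 it was -0.15. ATG7, the activating enzyme, had -0.12. ATG12 and ATG5 form the conjugate that, with ATG16L1, directs the transfer, and had -0.10, 0.11 and 0.095 in that order. Thus 3 of 6 members had a higher and 3 a lower mean in the probe sets used. Signs differed among the tested probe sets of ATG7 (-0.17 to 0.065), ATG12 (-0.10 to 0.15) and ATG16L1 (-0.37 to 0.095). They agreed in ATG3 (0.078 to 0.42), ATG4B (-0.36 to -0.0081) and ATG5 (0.015 to 0.11).

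The proteins of the ATG8 family coat the autophagosome and are the usual readout of its formation. These arrays measure only their RNA. MAP1LC3B (LC3B) had signals of 2887, 2877 and 2809 with PBS and 3069, 3054 and 3259 with TCI04. Each TCI04 array lay above each PBS array. The means of 2858 ± 42.9 and 3128 ± 114 gave a log2 fold change of 0.13 (interval -0.0079 to 0.27, limma, adjusted p = 0.699). Its other probe set gave 0.016 and overlapped. MAP1LC3B2 is a near-identical copy, and these probe sets may read both. GABARAP had signals of 7977, 8847 and 8257 with PBS and 8561, 8295 and 8212 with TCI04, with a log2 fold change of 0.00038 and the narrow interval -0.13 to 0.13. GABARAPL1, a close relative of GABARAP, had signals of 167, 135 and 171 with PBS and 156, 200.03 and 188 with TCI04, which overlapped. Its log2 fold change was 0.19 (interval -0.19 to 0.58), but its other probe set gave -0.20. GABARAPL2 had 0.068. All 4 log2 fold changes were thus at or above 0, and none passed. Single members turned below 0 in other fits. GABARAPL1 was -0.0044 with probe sets averaged, and GABARAP was -0.0024 with array weights and -0.033, -0.0079 and -0.017 without PBS replicate 1, PBS replicate 3 and TCI04 replicate 1.

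The receptors tie cargo to the ATG8 proteins. Here too only RNA was measured, not the turnover of a protein. SQSTM1 (p62), which is both a receptor and a substrate of autophagy, had signals of 5289, 4884 and 5103 with PBS and 4923, 5052 and 5471 with TCI04. The groups overlapped, with TCI04 replicate 3 above every PBS array and PBS replicate 2 below every TCI04 array. The log2 fold change was 0.015 (interval -0.13 to 0.16), or -0.011 after quantile normalization. NBR1 had signals of 4052, 4263 and 4381 with PBS and 4573, 4541 and 4503 with TCI04. Its groups did not overlap. The log2 fold change was 0.10 (interval -0.028 to 0.23, limma, adjusted p = 0.708), and the other tested probe sets gave -0.053 and -0.19. OPTN (optineurin) and TAX1BP1, receptors of damaged mitochondria and of protein aggregates, had -0.020 and 0.028.

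**Figure D2:**
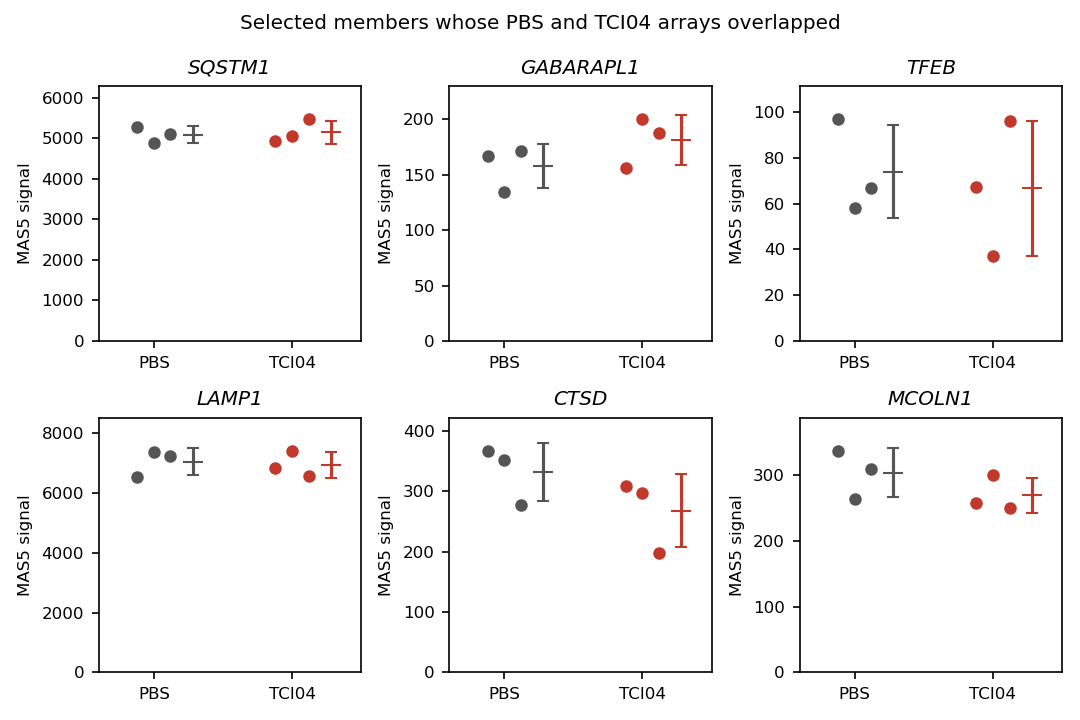
MAS5 signal (linear axis from 0) of SQSTM1, GABARAPL1, TFEB, LAMP1, CTSD and MCOLN1; points are single arrays, and the bar beside them is the mean with its SD (n = 3). PBS and TCI04 arrays overlap in each of these 6 genes; MAP1LC3B, whose arrays do not overlap, is plotted with the non-overlapping genes.

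Groups did not overlap for 6 of the 40 members (15%), as for 13.6% of all genes. TCI04 was above PBS for 5 of them, CTSL, ATG3, WIPI2, MAP1LC3B and NBR1 (12.5%, against 6.64% of all genes), and below for GAA alone (2.5%, against 6.91%). The size of the 5 higher differences ran from 0.043 to 0.23. With fewer arrays groups overlap less, and leaving out single arrays gave 5 to 9 members above and 2 to 5 below. The highest counts came without TCI04 replicate 1 (9 above) and without PBS replicate 1 (5 below). In these fits 11.8% of all genes lay above and 13.6% below, in that order. Centring on the array medians gave 12 above, when 29.1% of all genes were above. With probe sets of the _x_at and _s_at kinds left out, 0 of the 27 members then tested were above.

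**Figure D3:**
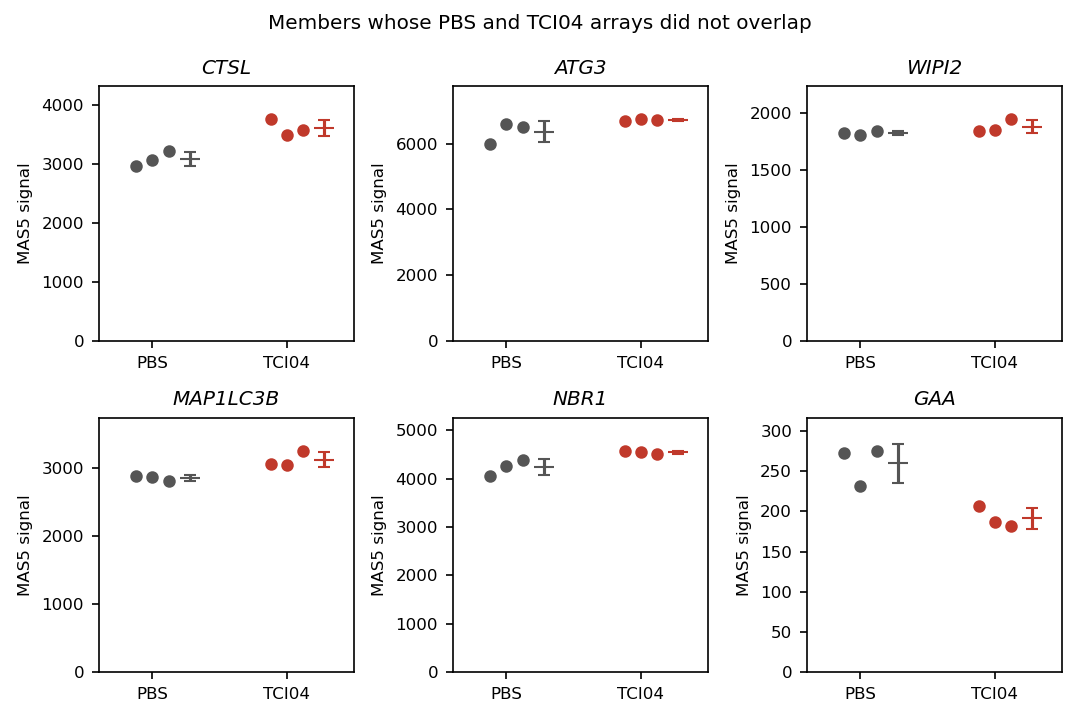
MAS5 signal (linear axis from 0) of the 6 genes whose PBS and TCI04 arrays do not overlap; points are single arrays, and the bar beside them is the mean with its SD (n = 3). The gap between groups is small against the signal in ATG3, WIPI2 and NBR1, and widest in GAA and CTSL.

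The members spread most in TCI04 replicate 3. This array had the highest signal of the 6 for 14 members and the lowest for 10. It was thus at an end of the range for 60% of members, against 45.3% of all genes, while the other arrays were so for 25% to 37.5% of members. The 10 lowest were MCOLN1, CTSA, CTSD, CTSZ, GLA, GAA, ATP6V0D1, ATG4B, ATG7 and ATG12. The 14 highest were CTSB, NPC2, ATP6V1H, TFE3, ATG13, RB1CC1, BECN1, WIPI2, ATG16L1, MAP1LC3B, GABARAPL2, SQSTM1, OPTN and TAX1BP1. Both kinds of gene were thus on both sides, but unevenly. Most of the lowest were lysosomal members, and most of the highest were autophagy members. The same array had a 3' to 5' signal ratio of the ACTB control, a sign of RNA integrity, of 3.33, against 1.64 to 1.72 in the other 5. The ratio of the GAPDH control stood out less, at 1.21 against 0.97 to 1.08. The part of RNA quality in these values was not tested. Without it, the lysosomal members had a median of -0.018 in place of -0.052 (18 genes), and the autophagy members 0.0054 in place of 0.036 (22 genes). With all arrays, 12 of the 18 lysosomal members had a lower mean and 14 of the 22 autophagy members a higher mean. Over all genes 49.3% had a higher mean. With median centring 4 of 18 were lower and 20 of 22 higher. Averaging the probe sets of each gene kept 12 of 18 lower, but only 10 of 22 were then higher. Dropping the _s_at and _x_at kinds kept 14 lysosomal members, 7 of them lower, and 13 autophagy members, 7 of them higher. The split thus varied with the probe sets used, and it was not tested.

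**Figure D4:**
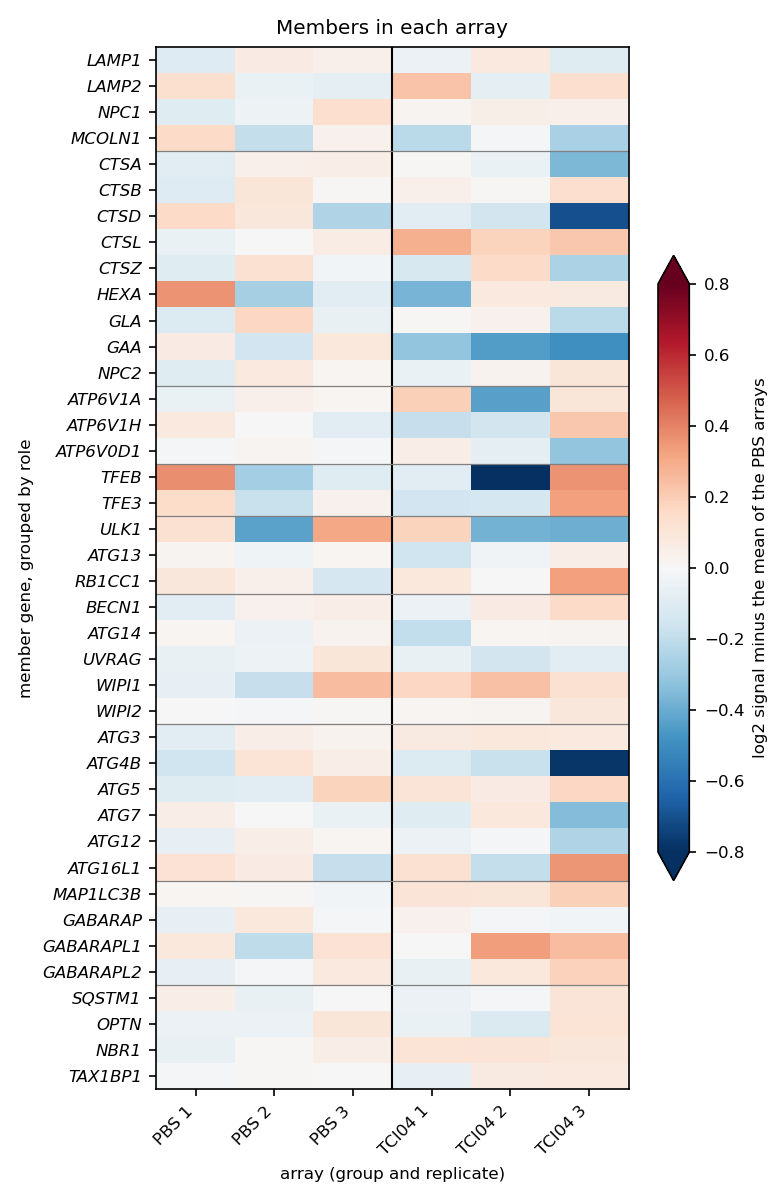
Log2 signal of each member in each array minus the mean of the 3 PBS arrays (red higher, blue lower, scale ending at 0.8 in either direction), grouped by role. TCI04 replicate 3 has strong colours in the most genes, with CTSD and ATG4B low, and TFEB is lowest in TCI04 replicate 2. The 3 TCI04 arrays share a colour in several genes, among them CTSL, WIPI1 and MAP1LC3B (higher) and GAA, CTSD and UVRAG (lower).

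Of the 97 probe sets of the members, 90 were tested and none passed the adjusted threshold (limma, 3 with an unadjusted p under 0.05). For 26 members at least 2 were tested, and in 15 of these their signs differed. The dim probe sets spread most. The 28 with a mean signal under 250 had a median absolute log2 fold change of 0.21 and ran from -0.67 to 0.62. The 39 with a mean over 1000 had a median of 0.058 and ran from -0.13 to 0.23. LAMP1 was the widest case with opposite signs. A dim probe set had signals of 94.96, 161 and 110.5 with PBS and 189.7, 189.7 and 188 with TCI04, with no overlap and a log2 fold change of 0.62 (limma, adjusted p = 0.699). Another had -0.42, and the remaining probe sets had -0.022, which is the value used above, and 0.00077. For SQSTM1 the lowest of the other probe sets gave -0.67, with a signal of 31.7 in TCI04 replicate 3 against 143 to 201 in the other arrays.

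**Figure D5:**
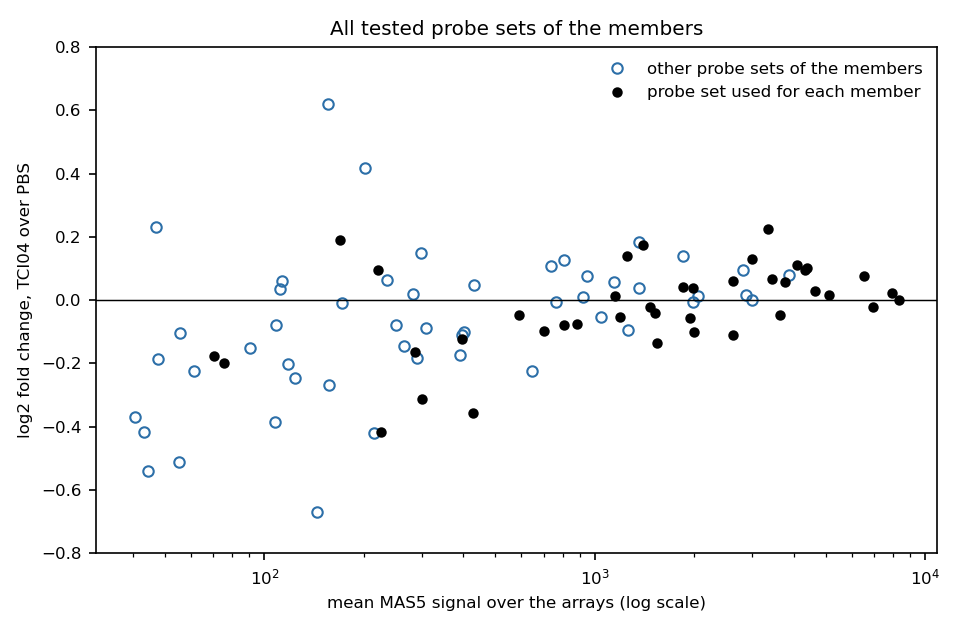
Log2 fold change of the 90 tested probe sets of the members against their mean MAS5 signal (log axis); filled points are the probe set used for each member, open points are the others. The spread narrows as signal increases.

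The other genes of the pathway, in 5 lists, gave 124 tested genes. None passed the adjusted threshold in limma, and 8 had an unadjusted p under 0.05, of which 3 were higher and 5 lower with TCI04. Over all genes 7.12% had such a p, 2.89% higher and 4.23% lower. Groups did not overlap for 8 of the 124 above PBS and for 7 below, against 6.64% and 6.91% of all genes. The genes named below had the smallest p in their lists, so separation among them is no further result. Of the 124, 77 had a higher mean, against 49.3% of all genes. The median of the 124 was 0.025. Among other lysosomal enzymes (31 tested, 15 higher), SGSH, a sulfatase of heparan sulfate, had signals of 352, 332 and 369 with PBS and 273, 261 and 187 with TCI04. Its groups did not overlap, with a log2 fold change of -0.54 (limma, adjusted p = 0.699). LGMN (legumain), a protease that processes cathepsins, CTSL among them, had signals of 909, 962 and 882 with PBS and 1030.4, 1134 and 1092 with TCI04. All TCI04 arrays lay above all PBS arrays, with a log2 fold change of 0.24 (limma, adjusted p = 0.699). The sialidase NEU1 had -0.22.

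Other V-ATPase subunits had a higher mean in 9 of 13 genes. ATP6V0C, the proton-carrying ring subunit, was on the lower side, with signals of 3172, 2815 and 3167 with PBS and 2658, 2661 and 2179 with TCI04. Every TCI04 array was lower than every PBS array, with a log2 fold change of -0.29 (limma, adjusted p = 0.699). ATP6V0B and ATP6V0A1 had -0.15, which turned to 0.014 with median centring, and -0.28. Other membrane and sorting genes had a higher mean in 14 of 24. The membrane protein LAPTM5 had -0.28, and VPS16 and VPS18, subunits of a complex for fusion with lysosomes, had 0.21 and -0.21. VPS18 turned to 0.56 with its probe sets averaged.

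Other core autophagy genes had a higher mean in 20 of 33. ATG9A, the lipid scramblase of autophagic membranes, had -0.32, and WDR45, a relative of the WIPI proteins, had 0.25. Neither gene's groups overlapped. MAP1LC3A, dim and overlapping, had -0.75. In the list of mTORC1 control at the lysosome, 19 of 23 genes had a higher mean, against 49.3% of all genes. The median was 0.047, and this count was not tested. RRAGC, a Rag GTPase that brings mTORC1 to the lysosome, had 0.24. TSC2, an inhibitor of mTORC1, had -0.69, which turned to 0.043 with probe sets of the _s_at and _x_at kinds left out. MITF, a relative of TFEB, had -0.16.

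All 7 mesenchymal markers, among them VIM and CD44, were above the filter, with a summed signal of 83663 to 89369 with PBS and 84160 to 85462 with TCI04. VIM, CAV1 and AXL make up most of that sum, and 3 of the 7 genes had a higher mean with TCI04. FN1 was lower without overlap, with a log2 fold change of -0.27 (limma, adjusted p = 0.699). Of the luminal markers 5 of 7 were above the filter (KRT19, GATA3, EPCAM, FOXA1 and ESR1), and CDH1 and PGR lay below it. Their summed signal was 2856 to 3380 with PBS and 2102 to 3180 with TCI04. Of the 7 leukocyte markers listed, 5 were read, and 3 lay above the filter (CD3E, CSF1R and ITGAM). These 3 had log2 fold changes of -0.14, 0.61 and -0.90 in that order, and none passed. Endothelial markers had 1 of 5 genes above the filter (PECAM1), and fibroblast markers 2 of 5 (COL1A1 and DCN). PTPRC, CDH5 and PDGFRB were among the genes below it. Summed signals of the leukocyte, endothelial and fibroblast markers were at most 283, 291 and 700 on any array.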

How the data were processed

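Deposited values were intensity values, 1 MAS5 signal per probe set and array on a linear scale. Per the submitters' processing notes the authors used MAS5. After trimming 2% of values at each end, the mean of each array was 500.1, which shows a scaling per array in the deposited intensity values. Neither the MAS5 version nor detection calls are given in the sources used here. The analysis used log2(signal + 11.0), where the offset is the 20th percentile of the table, and on this scale changes of dim probe sets are understated. Control probe sets (62) and probe sets with a mean signal below the 40th percentile, 37.0, were left out.

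The 32746 others were tested with limma 3.58.1 (R 4.3.3), using lmFit and eBayes with trended variance, two-sided. Benjamini-Hochberg adjustment ran over all 32746, with a threshold of 0.05. The 95% intervals used 10.5 degrees of freedom. The platform annotation paired 41097 probe sets with 1 symbol, 1801 with several and 11777 with none. By Entrez ID 41043 matched RefSeq, and 0 symbols changed. The number of arrays limits the precision.

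Members and lists were chosen with earlier results of these data known. Every array value is given for members with an unadjusted p under 0.05 or no overlap between groups, those whose probe sets reach 0.25 in both directions, the member with the most signal in each role, and SQSTM1, MAP1LC3B, GABARAPL1, TFEB, LAMP1, CTSD and MCOLN1. In each other list, the 3 genes with the smallest p were named. Alternatives were other scalings, offsets, filters, probe set choices, variance models, array weights, a replicate block and each array left out.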

Additional observations from a re-analysis of the deposited data

How the results depend on the processing

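In none of 18 alternatives did a member or another gene of the pathway pass the adjusted threshold. The smallest adjusted p of a member was 0.280, with median centring. Of 18 members followed one by one, 8 kept their sign throughout, CTSL and GAA among them. CTSL, higher, kept an unadjusted p under 0.05 in all 17 alternatives that tested it, and GAA, lower, in 17 of 18. Both genes were picked by their p on the arrays that these alternatives reuse, so this is no further support. Median centring gave 34 members with a higher mean, a median of 0.150 (0.157 over all genes), 8 higher and 0 lower members at an unadjusted p under 0.05, and 12 without overlap above PBS. Over all genes 18.3% were then higher at that p and 29.1% lay above PBS without overlap. Averaging the probe sets of a gene gave a median of -0.055, 2 higher members at that p and 1 without overlap above PBS. Without a filter 2 were higher at that p. When probe sets ending in _x_at or _s_at were left out, 0 were higher at that p and 0 lay above PBS without overlap, with 27 members tested. The replicate block gave 2 lower members at that p in place of 1, and 5.31% of all genes in place of 4.23%. It changed no call, and the smallest adjusted p of a member was then 0.470. Same-numbered arrays correlated at 0.0069, 0.068 and 0.055 in their deviations, each best with its own number. These values are small, and whether same-numbered arrays were made together was not tested and is not given in the labels.

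With single arrays left out, the members at an unadjusted p under 0.05 ranged from 1 to 3 higher and from 1 to 2 lower. Those without overlap ranged from 5 to 9 above and 2 to 5 below, fewer arrays overlapping less. Signs turned in these fits, with ranges of -0.075 to 0.016 for LAMP1, -0.024 to 0.063 for NPC2, -0.17 to 0.15 for ATP6V1A, -0.45 to 0.13 for TFEB, -0.15 to 0.094 for TFE3, -0.033 to 0.042 for GABARAP and -0.029 to 0.047 for SQSTM1. Quantile normalization turned TFE3 to -0.0016 and SQSTM1 to -0.011. Median centring turned LAMP1 to 0.14, ATP6V1A to 0.11 and ATP6V0B to 0.014. Averaging probe sets turned LAMP1 to 0.044, TFE3 to -0.23, WIPI2 to -0.10, GABARAPL1 to -0.0044, SQSTM1 to -0.22, NBR1 to -0.046 and VPS18 to 0.56. Leaving out _x_at and _s_at probe sets turned LAMP1 to 0.00077, SQSTM1 to -0.27, NBR1 to -0.19 and TSC2 to 0.043. Array weights turned NPC2 to -0.018, TFE3 to -0.036 and GABARAP to -0.0024. The cause of these turns was not tested.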
